A study of Arabidopsis thaliana with 6 samples.

Results

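Loss of Pol IV was examined by comparing nrpd1-3 plants, which lack the largest subunit of this RNA polymerase, with nrpd1-3 plants that carry a full-length NRPD1 transgene, here called NRPD1FL. The 4 libraries of these 2 groups, of 6 in the series, were used. The genome was divided from base 1 of each chromosome into 397157 windows of 300 bp without overlap, and the 288116 windows with at least 10 listed CHH cytosines in each of the 4 libraries were kept. CHH cytosines are followed by A, C or T at the next 2 positions. The level of a window or region was its methylated reads as a percent of all its reads, and the share of the NRPD1FL level that was present in nrpd1-3 is called the retained share. The comparison asked where CHH methylation was lost or kept along the chromosomes, and at which starting levels, the starting level being that of NRPD1FL.

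Whole-genome bisulfite sequencing was used, which converts unmethylated cytosines so that they are read as T. All plants were Arabidopsis thaliana of the Col-0 ecotype and DNA came from above-ground tissues after 2.5 weeks of growth on soil in days of 16 h light and 8 h dark. The nrpd1-3 allele, a null allele with a T-DNA insertion in NRPD1, was the background of both groups. The 2 nrpd1-3 libraries had no transgene, and the 2 NRPD1FL libraries had a transgene for full-length NRPD1 with a FLAG tag, in lines selected with Basta herbicide. The study describes its NRPD1 clone as genomic, with the gene's own promoter. No wild-type library was used here, so a locus at which the transgene did not restore methylation would appear unchanged. The replicates are described as biological, with nothing on whether the NRPD1FL replicates were separate transformants.

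Pol IV transcribes transposons and other repeats, and the polymerase RDR2 copies its transcripts into double-stranded RNA, which DCL3 cuts into small interfering RNAs (siRNAs). These siRNAs are loaded into ARGONAUTE proteins, pair with transcripts of the related polymerase Pol V and bring the methyltransferase DRM2, which methylates cytosines in all contexts. This is RNA-directed DNA methylation (RdDM), and it acts mostly on short transposons near genes and on the edges of long ones. In the bodies of long transposons, CHH methylation is known to be kept by another enzyme, CMT2, which binds methylated histones and prefers cytosines followed by AA or TA.

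Sequences of 4 windows show both outcomes beside each other. The first 2 are the windows of chromosomes 1 and 5 with the largest pooled loss, one near the gene NLA and one near AT5G03220. The third lies in the pseudogene AT1G70010 and is the highest window of chromosome 1 that differed by under 2 points and was methylated on both strands, a window chosen after its values were seen. The fourth, near the pseudogene AT5G32481, is the highest of chromosome 5 that differed by under 2 points. The top strand of TAIR10.1 from RefSeq is shown, and capitals mark CHH cytosines at 30% or more in the pooled reads of the named group, as C for a cytosine of the top strand and G for one of the bottom strand. No base would be in capitals for the first 2 windows in nrpd1-3, so only NRPD1FL is printed for them.
Lost, chr1:634201-634500, NRPD1FL: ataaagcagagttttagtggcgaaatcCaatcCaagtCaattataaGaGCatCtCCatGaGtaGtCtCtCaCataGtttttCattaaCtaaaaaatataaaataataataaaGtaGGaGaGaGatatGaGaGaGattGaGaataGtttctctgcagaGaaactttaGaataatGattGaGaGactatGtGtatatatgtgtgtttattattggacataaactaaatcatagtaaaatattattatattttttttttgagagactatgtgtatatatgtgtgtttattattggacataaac
Lost, chr5:765901-766200, NRPD1FL: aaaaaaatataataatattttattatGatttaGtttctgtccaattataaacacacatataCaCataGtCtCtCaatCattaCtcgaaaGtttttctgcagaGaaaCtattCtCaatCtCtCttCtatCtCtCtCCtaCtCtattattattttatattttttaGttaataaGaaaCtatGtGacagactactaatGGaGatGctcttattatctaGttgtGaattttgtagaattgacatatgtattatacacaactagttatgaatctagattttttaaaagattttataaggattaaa
Kept, chr1:26370901-26371200, nrpd1-3: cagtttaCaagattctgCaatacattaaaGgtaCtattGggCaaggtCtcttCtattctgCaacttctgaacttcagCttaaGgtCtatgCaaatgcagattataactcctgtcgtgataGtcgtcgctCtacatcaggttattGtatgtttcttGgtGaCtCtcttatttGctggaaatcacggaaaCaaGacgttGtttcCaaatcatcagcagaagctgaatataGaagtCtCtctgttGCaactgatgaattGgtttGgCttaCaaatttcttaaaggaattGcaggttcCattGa
Kept, chr1:26370901-26371200, NRPD1FL: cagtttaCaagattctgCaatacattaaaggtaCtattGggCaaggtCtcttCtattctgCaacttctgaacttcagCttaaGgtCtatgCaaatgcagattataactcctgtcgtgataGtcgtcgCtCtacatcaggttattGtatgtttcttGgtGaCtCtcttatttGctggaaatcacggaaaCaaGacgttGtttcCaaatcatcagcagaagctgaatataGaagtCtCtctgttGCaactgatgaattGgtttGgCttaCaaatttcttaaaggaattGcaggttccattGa
Kept, chr5:12105301-12105600, nrpd1-3: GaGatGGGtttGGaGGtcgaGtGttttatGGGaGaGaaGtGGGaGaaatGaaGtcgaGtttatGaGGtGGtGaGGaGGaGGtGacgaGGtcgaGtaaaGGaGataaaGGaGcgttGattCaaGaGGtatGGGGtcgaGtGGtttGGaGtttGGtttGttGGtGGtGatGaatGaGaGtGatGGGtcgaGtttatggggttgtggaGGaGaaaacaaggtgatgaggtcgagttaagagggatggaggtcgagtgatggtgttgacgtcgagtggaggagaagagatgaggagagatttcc
Kept, chr5:12105301-12105600, NRPD1FL: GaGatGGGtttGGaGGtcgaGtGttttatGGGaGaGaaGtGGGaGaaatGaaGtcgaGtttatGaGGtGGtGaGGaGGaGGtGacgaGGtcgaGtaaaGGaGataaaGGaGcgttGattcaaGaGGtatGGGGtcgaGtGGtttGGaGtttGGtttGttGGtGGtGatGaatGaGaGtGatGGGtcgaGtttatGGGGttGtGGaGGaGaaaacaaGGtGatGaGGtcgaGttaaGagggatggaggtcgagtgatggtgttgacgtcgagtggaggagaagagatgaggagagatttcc
In the first window 40 cytosines were in capitals in NRPD1FL, of which 11 stood before AA or TA. In the kept window of the pseudogene AT1G70010, 25 of 37 capitals in nrpd1-3 and 25 of 36 in NRPD1FL stood before AA or TA. In the kept window of chromosome 5 this held for 7 of 81 capitals in nrpd1-3 and 7 of 95 in NRPD1FL, and nearly all capitals were on the bottom strand (80 of 81 and 95 of 95). The window of AT1G70010 was not typical of kept windows. In the windows of chromosomes 2, 3, 4 and 5 picked by its rule, the counts in nrpd1-3 were 8 of 60, 16 of 46, 10 of 61 and 11 of 67. The 2 lost windows shared a stretch of 29 identical bases on opposite strands, the longest stretch shared by any pair of the 15 windows compared.

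The libraries held 13370474 to 13819039 CHH cytosines at a mean coverage of 16.0 to 16.3 reads, and every listed cytosine had at least 5 reads. As a check of the labels, coverage over NRPD1 relative to the median of chromosome 1 was 1.87 and 1.89 in nrpd1-3, against 3.12 and 2.94 in NRPD1FL. The median level of coding-exon windows, where little CHH methylation is found, was 0.463% and 0.342% in nrpd1-3, against 0.338% and 0.346% in NRPD1FL, so nrpd1-3 replicate 1 had the highest background. With 2 libraries a group, an exact permutation test cannot give a p below 0.333.

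Of the covered windows, 7029 (2.44%) had a lower CHH level in nrpd1-3, by at least 10 points and at an adjusted p of 0.01 or less in a logistic regression of methylated and unmethylated reads with Benjamini-Hochberg adjustment. In contrast, 50 windows (0.0174%) had a higher level. In the lower windows the median level was 2.72% in nrpd1-3 and 22.7% in NRPD1FL, with a median difference of -17.5 points (quartiles -25.8 and -12.9). Both nrpd1-3 libraries lay below both NRPD1FL libraries in 7013 of them, against 19% of all covered windows. The calls used the same 4 libraries, so this separation is a description and no further test. No methylated read was found in either nrpd1-3 library in 251 of these windows, and 2870 (40.8%) were under 2% in nrpd1-3. The lower windows held 2.48% of the summed methylation of covered windows in nrpd1-3, against 11.2% in NRPD1FL, and made up 97.0% of the net difference in this sum. They were called on the same reads, and the net difference sets gains in other windows against losses. The 97.0% thus does not show how much loss lay in other windows.

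The same test between replicates gave 73 windows lower and 485 higher in nrpd1-3 replicate 1 than in replicate 2, and 182 lower and 173 higher in NRPD1FL replicate 1 than in replicate 2. Single libraries of nrpd1-3 against single libraries of NRPD1FL gave 6912 to 7337 windows lower and 57 to 485 higher. The numbers lower were thus far above those between replicates, whereas the numbers higher lay within them or below. Of the 50 higher windows, 29 had both nrpd1-3 libraries above both NRPD1FL libraries, as had 18.1% of all windows. The test treats reads as independent. With limma, which uses only the spread between libraries, no window in either direction reached an adjusted p of 0.01, 1090 windows were at least 10 points lower and 0 higher at 0.05, and 6873 were lower and 17 higher at an unadjusted p under 0.05. Without nrpd1-3 replicate 2 the number of higher windows was 486. Just inside the limit of 10 points stood a window with levels of 0.192% and 1.84% in nrpd1-3, against 9.71% and 11.97% in NRPD1FL. Just outside it stood one with 11.2% and 6.12% in nrpd1-3, against 18.5% and 22.6% in NRPD1FL.

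Read depth differed in the lower windows. A cytosine in them was covered on average by 13.96 and 14.08 reads in nrpd1-3, against 17.96 and 17.39 in NRPD1FL, whereas the other windows at 10% or more in NRPD1FL had 27.4 and 27.6 in nrpd1-3, against 27.2 and 26.3 in NRPD1FL. The median ratio of reads, NRPD1FL over nrpd1-3, was 1.71 in the lower windows and 0.980 in those other windows. Both nrpd1-3 libraries had fewer reads than both NRPD1FL libraries in 81.2% of the lower windows, against 14.9% of all windows. On cytosines listed in all 4 libraries, the summed level of the lower windows was 6.23% and 5.94% in nrpd1-3, against 24.0% and 23.7% in NRPD1FL, and with all cytosines it was 6.13% and 5.82% in nrpd1-3, against 26.5% and 26.3% in NRPD1FL. The windows were called on reads that include these cytosines, so this is a description, and the part of depth in the calls was not tested.

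Over all covered windows the level was 7.00% and 6.21% in nrpd1-3, against 7.31% and 6.99% in NRPD1FL, with a mean difference of -0.548 points (exact permutation test, 2 against 2, p = 0.667), which was -0.940 without nrpd1-3 replicate 1 and -0.155 without nrpd1-3 replicate 2. These values overlap, since nrpd1-3 replicate 1 lay above NRPD1FL replicate 2. In the chromosome arms the level was 2.70% and 2.05% in nrpd1-3, against 3.09% and 2.90% in NRPD1FL, a retained share of 79.3% ± 15.8 (SD from the spread of both groups, n = 2 each). In the pericentromeres and the knob of chromosome 4, the blocks of heterochromatin around the centromeres and on the short arm of that chromosome, it was 11.9% and 11.2% in nrpd1-3, against 12.1% and 11.9% in NRPD1FL, a retained share of 96.3% ± 4.07. In both regions the groups did not overlap, at the smallest p that the exact permutation test allows (0.333), and leaving out 1 library gave retained shares of 68.5 to 90.2% in the arms. The differences were -0.619 points in the arms (-0.945 and -0.293 without nrpd1-3 replicate 1 or 2) and -0.447 points in heterochromatin (-0.776 and -0.119). These values weight windows by their reads. With each window weighted equally, the arms retained 80.2% ± 25.6 and heterochromatin 86.5% ± 3.67. The differences were then -0.276 and -1.29 points, the larger one in heterochromatin. The level in the knob alone was 11.7% and 11.1% in nrpd1-3, against 11.6% and 11.4% in NRPD1FL, which overlap. Of the lower windows, 45.2% lay in heterochromatin, which held 24.9% of all covered windows, and 4.43% of its windows were lower, against 1.78% in the arms. These are shares of all covered windows, but only windows at 10% or more in NRPD1FL could be called lower. Among those windows the order was reversed, with 3850 of 9215 lower in the arms, against 3179 of 36016 in heterochromatin.

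**Figure D1:**
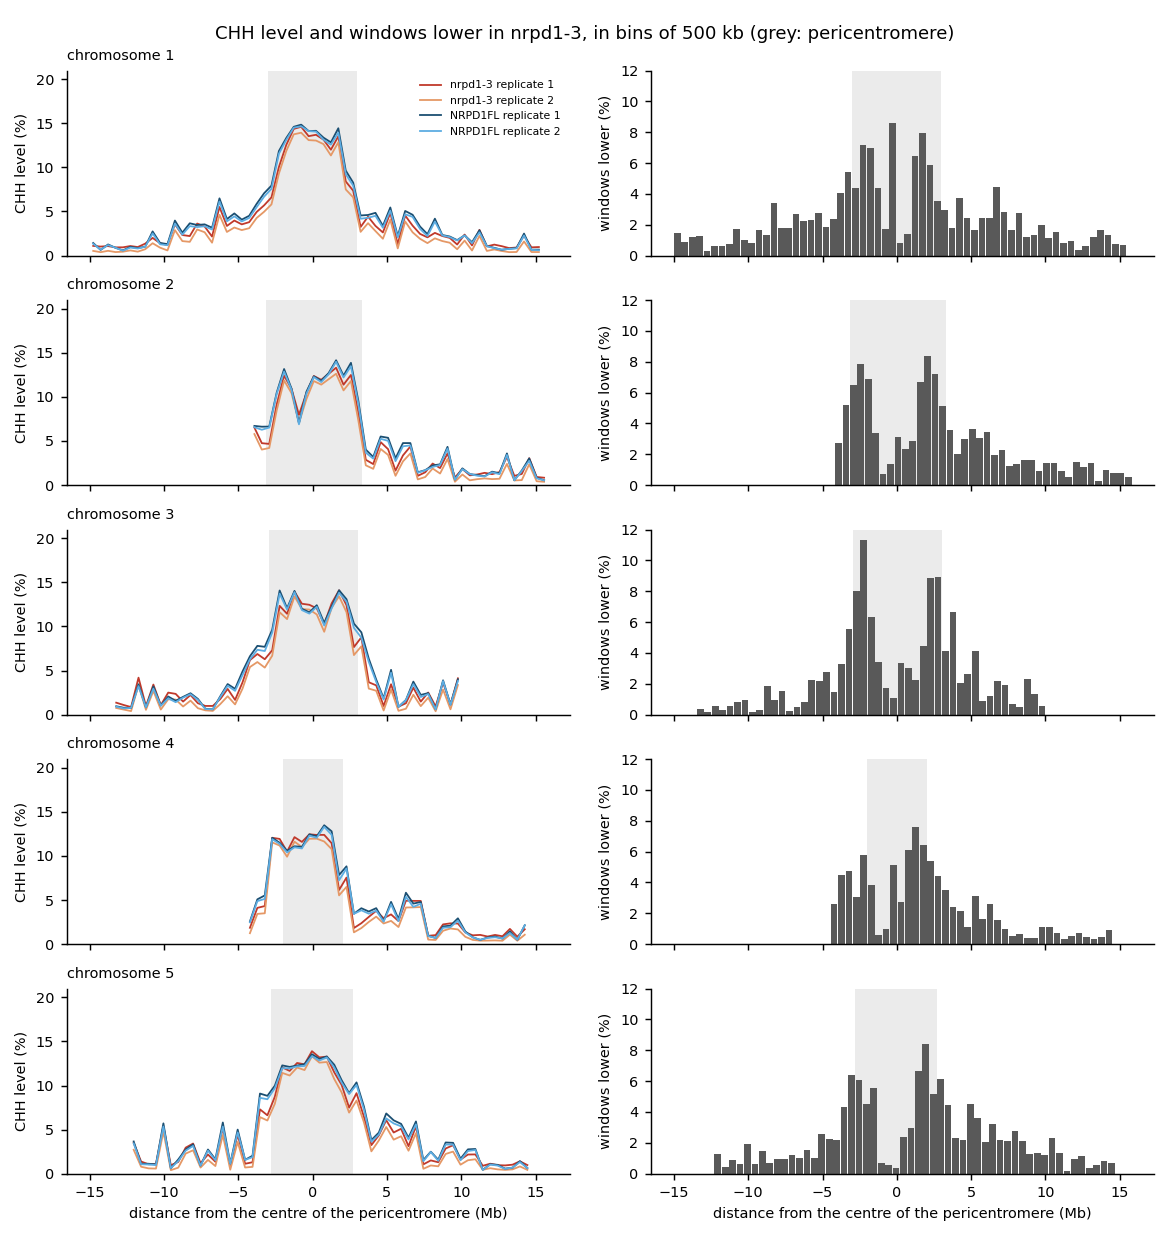
Left, CHH level (percent) of each library in bins of 500 kb, by distance (Mb) from the centre of the pericentromere, which is shaded grey. Right, the percent of covered windows in each bin that were lower in nrpd1-3. The 4 lines run close together in the middle of each chromosome, and the bars reach 11.3% in the pericentromere of chromosome 3. On chromosome 1 the highest bar, 8.57%, stands at -0.275 Mb from the centre.

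Over all chromosomes together, the lower windows were most frequent in the outer 1 Mb of the pericentromeres. They made up 6.57% of windows there and 4.3% in the first 1 Mb of the arms, against 4.28% at 1 to 2 Mb inside, 2.11% at 2 Mb or more inside and 0.756% at 8 Mb or more outside. These are shares of all covered windows, of which only those at 10% or more in NRPD1FL could be called lower. In the outer 1 Mb of the pericentromeres the level was 10.5% and 9.81% in nrpd1-3, against 11.4% and 11.1% in NRPD1FL. In the first 1 Mb of the arms it was 5.61% and 4.84% in nrpd1-3, against 6.79% and 6.45% in NRPD1FL, the largest difference of the 8 distance classes (-1.39 points). The retained share was 98.4% at 2 Mb or more inside, 90.3% in the outer 1 Mb, 78.9% in the first 1 Mb outside and 75.2% at 1 to 2 Mb outside. Farther out it was 75.3% at 2 to 4 Mb, 82.2% at 4 to 8 Mb and 91.6% ± 34.5 at 8 Mb or more. At 8 Mb or more outside the groups overlapped, with 1.36% and 0.790% in nrpd1-3, against 1.204% and 1.14% in NRPD1FL.

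In bins of 500 kb the median retained share was 81.0% over 182 arm bins and 94.8% over 56 pericentromere bins. Between 0.156 and 6.67% of windows were lower in arm bins, and between 0.383 and 11.3% in pericentromere bins. Each bin therefore had at least 1 lower window. The highest share, 11.3%, was that of chr3:11000001-11500000 in the pericentromere, which had 12.3% and 11.6% in nrpd1-3, against 14.1% and 13.7% in NRPD1FL. By chromosome, the retained share in the arms lay between 77.1% on chromosome 1 and 80.6% on chromosome 5, less than the SD of 14.3 to 16.9 on each value. In the pericentromere it lay between 93.5% ± 3.86 on chromosome 1 and 98.7% ± 3.64 on chromosome 4.

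Intergenic DNA near genes had the lowest retained shares in the arms. Within 1 kb before protein-coding genes the level of arm windows was 1.93% and 1.49% in nrpd1-3, against 5.76% and 5.49% in NRPD1FL, a retained share of 30.4% ± 5.58. It was 40.8% ± 6.38 within 1 kb after genes and 44.5% ± 4.08 in intergenic DNA farther away. In points the order was another, with -5.58 farther away, -3.91 before genes and -3.62 after genes, and 11.2%, 6.01% and 6.52% of windows were lower. The same positions in heterochromatin retained 68.9% ± 4.35, 72.5% ± 4.50 and 85.2% ± 3.25. Pseudogenes, the class under which the annotation holds many transposon-derived genes, had 14.3% and 13.7% in nrpd1-3, against 13.9% and 13.7% in NRPD1FL. In the arms pseudogenes had 16.0% and 15.2% in nrpd1-3, against 16.7% and 16.3% in NRPD1FL, a retained share of 94.5% ± 3.87. In heterochromatin they retained 103% ± 3.26. Of pseudogene windows, 3.95% in the arms and 0.801% in heterochromatin were lower. With arms and heterochromatin together, 1.36% of pseudogene windows were lower, against 7.24% of windows within 1 kb before genes and 9.23% of those farther from genes. Of all lower windows 22.8% lay within 1 kb before a gene, 11.9% within 1 kb after one, 47.2% farther away and 6.26% in pseudogenes. Coding exons held 2.73% of them. All p-values of these levels were at or above 0.333 by the exact permutation test.

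Around the starts of the 24691 protein-coding genes of the arms, NRPD1FL showed a peak before the start that nrpd1-3 lacked. In the bin of 100 bp centred 350 bp before the start, the level was 1.58% and 1.07% in nrpd1-3, against 4.30% and 3.98% in NRPD1FL, a retained share of 32.0%. At 950 bp inside the gene it was 1.35% and 0.796% in nrpd1-3, against 1.14% and 1.08% in NRPD1FL, and the groups overlapped. At 50 bp after the ends of the same genes the retained share was 57.2%, with 1.43% and 0.902% in nrpd1-3, against 2.13% and 1.95% in NRPD1FL. For the 2753 genes of heterochromatin, the level at 350 bp before the start was 7.79% and 7.03% in nrpd1-3, against 11.3% and 11.1% in NRPD1FL, a retained share of 66.1%.

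**Figure D2:**
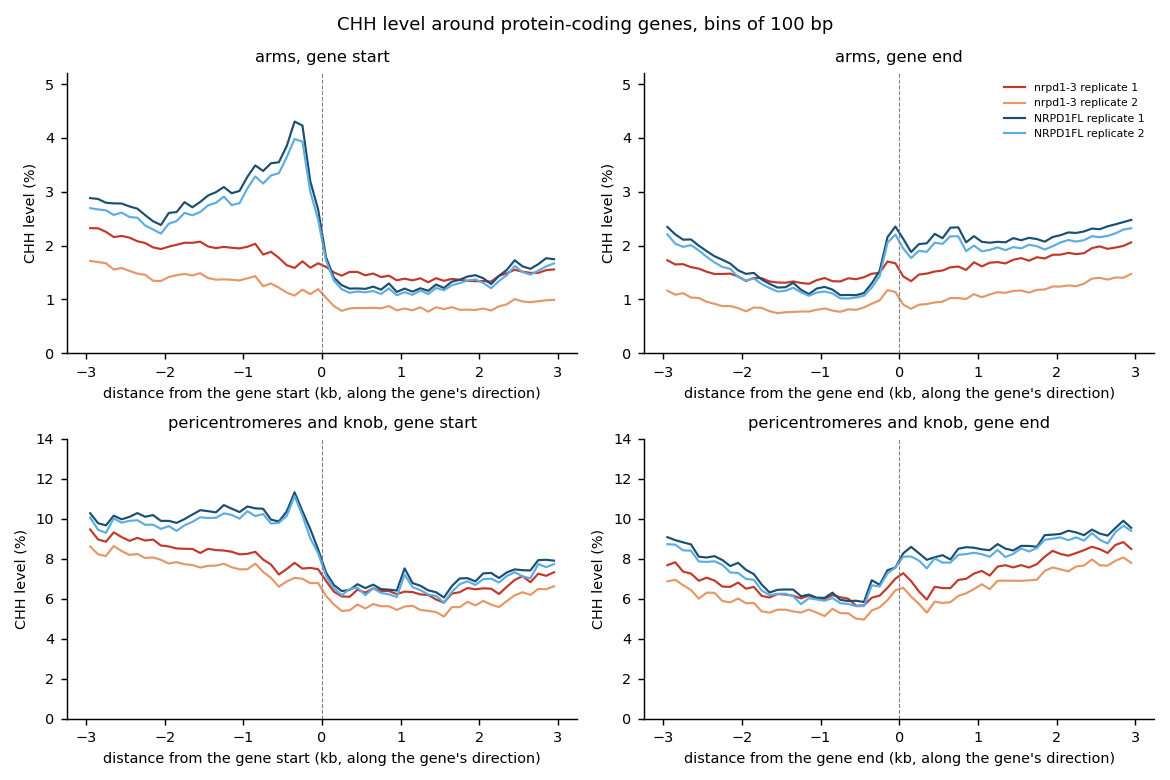
CHH level (percent) of each library in bins of 100 bp from 3 kb before to 3 kb after the start or the end of protein-coding genes, in arms (top) and in pericentromeres with the knob (bottom). At 350 bp before arm genes the nrpd1-3 lines lie at 1.58% and 1.07%, against a peak of 4.30% and 3.98% in NRPD1FL.

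Of the 27232 protein-coding genes with a covered window in the gene or the 1 kb before it, 1926 (7.07%) had a window lower in nrpd1-3 there and 32 (0.118%) a higher one. For pseudogenes these shares were 15% and 0.378%. Among genes whose 1 kb before the start had 20% or more in NRPD1FL, 545 of 759 retained under 25%, and among those at 2 to 10% in NRPD1FL this held for 662 of 1501. The 15 genes with a symbol and the largest losses had between 0% and 7.48% before the start in nrpd1-3, against 30.6 to 70.6% in NRPD1FL.

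The largest difference stood before NLA (AT1G02860, chr1:635144-637262), which encodes a ubiquitin ligase of nitrogen and phosphate responses, with 0.418% and 0.137% in nrpd1-3, against 64.9% and 70.6% in NRPD1FL. DMC1 (AT3G22880, chr3:8097678-8100932), the recombinase of meiosis, had 2.32% and 3.72% before its start in nrpd1-3, against 55.2% and 52.4% in NRPD1FL. RPL, a homeodomain gene of fruit patterning, had 1.08% and 0% in nrpd1-3, against 48.6% and 45.0% in NRPD1FL, where 0 of 195 reads allows up to 1.54%. Before the starts of these genes both nrpd1-3 libraries had 3.72% or less. At DMC1 the nrpd1-3 levels rest on 50 and 51 listed cytosines, against 189 and 191 in NRPD1FL. WRKY48, a transcription factor gene, had 1.89% and 1.04% in nrpd1-3, against 51.6% and 41.4% in NRPD1FL. ROP10, which encodes a small GTPase of abscisic acid signalling, had 2.27% and 1.205% in nrpd1-3, against 48.5% and 36.3% in NRPD1FL. NEK1, a kinase gene, had no methylated read before its start in nrpd1-3 (0 of 229 and 0 of 347 reads, which allows 1.31% and 0.865%), against 30.6% and 51.6% in NRPD1FL. The NRPD1FL replicates differed most for NEK1 among these 15 genes.

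The other 9 genes, LAF3 of phytochrome A signalling, ZW2, PRR2, MAP65-7 of the microtubule cytoskeleton, PAH2, HCF208 and OTP51 of plastid function, PRA1.F4 and ENT7, had pooled differences of -49.1 to -41.4 points. The reads again differed with the level. In 14 of the 15 genes both nrpd1-3 libraries had fewer reads before the start than both NRPD1FL libraries, with a median ratio of 2.96 (NRPD1FL over nrpd1-3) and the highest, 10.6, at DMC1. The part of depth in these levels was not tested.

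In contrast, the 5 genes with the highest kept level before the start had 15.7 to 23.6% in nrpd1-3 and 15.6 to 22.9% in NRPD1FL. DGK5, a diacylglycerol kinase gene, had 23.6% and 23.5% in nrpd1-3, against 22.9% and 21.6% in NRPD1FL. CYP81D1, a cytochrome P450 gene, had 22.3% and 20.4% in nrpd1-3, against 21.7% and 22.6% in NRPD1FL. The others were GRP20, PDX1L4 and UTR5, and their ratio of reads lay with those of DGK5 and CYP81D1 between 0.711 and 1.12. They were kept at levels well below the starting levels of the 15 genes above.

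**Figure D3:**
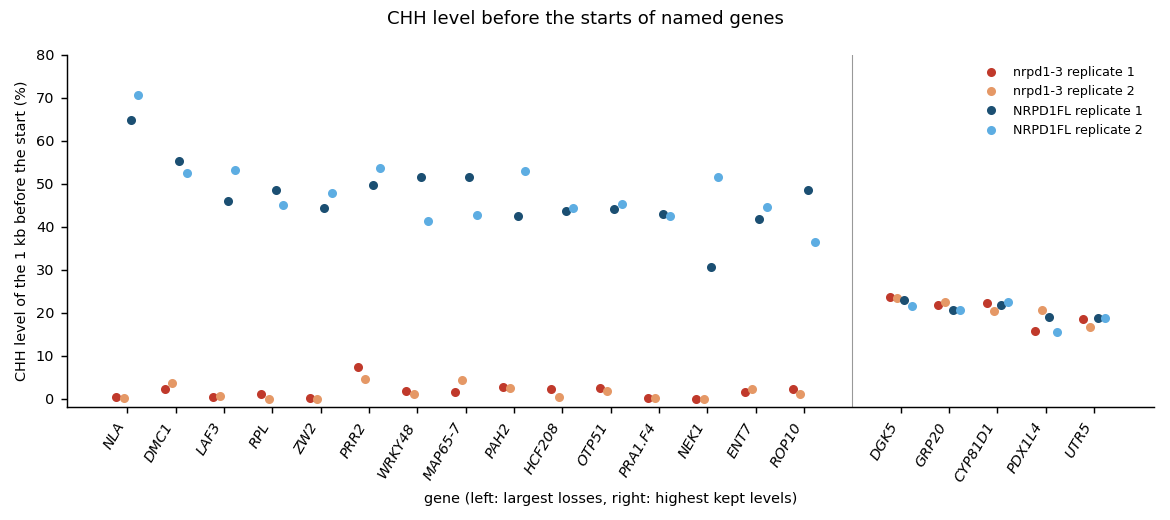
CHH level (percent) of the 1 kb before the start of each named gene, 1 point per library. The 15 genes on the left have 0 to 7.48% in nrpd1-3, and the 5 on the right have 15.7 to 23.6%.

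The windows named for each chromosome were picked for the size of their loss or for the lack of one, so their levels are examples and no further evidence. The lost window near NLA, 644 bp before the gene, had 1 of 422 and 1 of 599 reads methylated in nrpd1-3 (0.237% and 0.167%), against 559 of 792 and 761 of 1001 in NRPD1FL (70.6% and 76.0%). The lost window of chromosome 2, 402 bp after AT2G29810, had 0 of 196 and 0 of 223 reads methylated in nrpd1-3, which allows 1.53% and 1.35%, against 69.0% and 62.8% in NRPD1FL. The lost windows of chromosomes 3, 4 and 5 had 0% to 3.23% in nrpd1-3, against 53.6 to 78.8% in NRPD1FL. All 5 were in arms, with an adjusted p of at most 1.27e-119 in the logistic regression, and in all 5 both nrpd1-3 libraries had fewer reads.

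The 5 kept windows with the highest levels were in part of an unusual kind. That of chromosome 3 lay in a coding exon of AT3G07030 and had 100% in all 4 libraries, with all of 451, 929, 520 and 774 reads methylated, and it was the only window at 90% or more in all 4 libraries among those with 20 cytosines in each. The window of chromosome 5 shown above had 87.2% and 87.1% in nrpd1-3, against 83.6% and 90.9% in NRPD1FL. Those of chromosomes 1, 2 and 4 had 46.4 to 86.1% in nrpd1-3 and 50.4 to 85.3% in NRPD1FL. In each of the 5 windows at most 3 of the capitals in nrpd1-3 and 2 of those in NRPD1FL lay on the minor strand. Whether reads in such windows were unconverted or came from other copies of the sequence was not tested, and their levels and retained shares are given with that limit. The kept window of AT1G70010 had 33.2% and 32.6% in nrpd1-3, against 34.8% and 34.1% in NRPD1FL, with capitals on both strands.

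Genes of the methylation machinery are too few for their share of called genes to be set apart from that of all genes. Of 21 RdDM genes, 1 had a lower window (4.76%, against 7.07% of all protein-coding genes) and 1 a higher one. The lower window, chr3:15753001-15753300, stood before DCL3, which encodes the siRNA-producing dicer, with 0.489% and 1.73% in nrpd1-3, against 18.4% and 13.1% in NRPD1FL (adjusted p = 1.16e-30, logistic regression). The higher window, in NRPE1, the gene of the largest subunit of Pol V, had 18.1% and 0.380% in nrpd1-3, against 0.862% and 0.621% in NRPD1FL, so that it came from 1 library. NRPD1 itself had 7.93% and 7.54% over the gene and the 1 kb before it in nrpd1-3, against 6.94% and 6.65% in NRPD1FL, with no window called. None of 7 genes of maintenance methylation (MET1, CMT2, CMT3, DDM1 and the histone methyltransferase genes SUVH4, SUVH5 and SUVH6) and none of 4 DNA demethylase genes (ROS1, DME, DML2 and DML3) had a lower or a higher window. ROS1 had 0.905% and 0.417% over the gene and the 1 kb before it in nrpd1-3, against 0.422% and 0.474% in NRPD1FL.

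Of 10 genes known to carry methylated repeats or promoters, 5 had a lower window. These were chosen because methylation had been described there, so their share says little beside that of all genes. At CML41, a calmodulin-like gene, the window chr3:18873601-18873900 just before the start had 0 of 144 reads methylated, which allows 2.08%, and 1.57% in nrpd1-3, against 64.8% and 63.5% in NRPD1FL. The window chr2:7681801-7682100 before SDC, an F-box gene with tandem repeats in its promoter, had 1.04% and 2.83% in nrpd1-3, against 26.7% and 17.5% in NRPD1FL. The window chr4:13038301-13038600 at the start of FWA, a homeodomain gene silenced in vegetative tissue, had 0.787% and 0% in nrpd1-3, where 0 of 135 reads allows 2.22%, against 18.7% and 15.3% in NRPD1FL. At APUM9, a gene of the Pumilio RNA-binding family, the window chr1:13230601-13230900 kept more, with 13.9% and 14.2% in nrpd1-3, against 44.9% and 56.6% in NRPD1FL. In AT1G58602, the window chr1:21754201-21754500 of an intron had 5.13% and 6.77% in nrpd1-3, against 19.4% and 13.5% in NRPD1FL. The adjusted p of these 5 windows lay between 2.55e-100 and 2.95e-10 in the logistic regression.

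QQS, MEA, FIS2, IBM1 and EPF2 had no lower window. At QQS the level over the gene and the 1 kb before it was 7.97% and 7.47% in nrpd1-3, against 9.33% and 9.30% in NRPD1FL. Of 3 transposon genes, 1 had lower windows, against 15% of all pseudogenes, the class to which they belong. The gene AT1G11265 of the heat-activated retrotransposon ONSEN had 5, and the one with the largest difference, chr1:3780901-3781200 just before its start, had 3.52% and 3.02% in nrpd1-3, against 56.7% and 46.5% in NRPD1FL. The EVADE gene AT5G17125 had 9.89% and 12.02% in nrpd1-3, against 10.3% and 10.7% in NRPD1FL. The gene AT4G08680 of the DNA transposon AtMu1 had 10.2% and 10.3% in nrpd1-3, against 14.8% and 14.7% in NRPD1FL.

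The retained share differed with the starting level. Below 10% no window could be called lower. Windows at 0 to 1%, 74.5% of all, had 0.877% and 0.370% in nrpd1-3, against 0.359% and 0.368% in NRPD1FL. At 1 to 2, 2 to 5 and 5 to 10% the arms retained 64.8% ± 26.6, 72.3% ± 6.88 and 78.3% ± 4.13. Heterochromatin retained 87.5% ± 16.7, 97.4% ± 9.83 and 99.4% ± 5.27 at these levels. Windows at 10 to 20% in NRPD1FL, 36411 in number, had 14.3% and 13.7% in nrpd1-3, against 14.4% and 14.2% in NRPD1FL, a retained share of 98.0% ± 3.01, and 7.43% of them were lower. The 6655 windows at 20 to 30% had 20.1% and 19.3% in nrpd1-3, against 23.3% and 23.0% in NRPD1FL, and 36.6% of them were lower. At 30 to 40% the 1401 windows had 16.5% and 16.3% in nrpd1-3, against 33.9% and 33.9% in NRPD1FL. At 40 to 50% the 496 windows had 14.9% and 15.05% in nrpd1-3, against 44.3% and 44.2% in NRPD1FL, and 92.9% of them were lower. The level in nrpd1-3 was therefore below that of the 20 to 30% class where NRPD1FL was at 30 to 50%. The retained share of the summed reads was 48.5% ± 0.416 at 30 to 40% and 33.8% ± 0.307 at 40 to 50%. The median window retained much less, 13.7% at 30 to 40% and 8.54% at 40 to 50%, and 63.6% and 79.0% of windows retained under 25%. Setting the starting level on one NRPD1FL replicate and reading it in the other gave 48.8 and 49.2% at 30 to 40%.

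The values for arms and heterochromatin lay apart at starting levels of 10 to 20%, close together at 20 to 40% and apart again above. At 10 to 20% the retained share was 86.9% ± 2.86 in the arms, with 26.9% of windows lower, and 99.4% ± 3.03 in heterochromatin, with 4.50% lower. At 20 to 30% the arms retained 85.7% ± 2.28 and heterochromatin 84.5% ± 2.39. At 30 to 40% the values were 48.3% ± 1.03 in the arms and 48.9% ± 0.694 in heterochromatin. At 40 to 50% they were 28.6% ± 1.38 in the arms and 47.0% ± 4.42 in heterochromatin, with median window shares of 7.54% and 10.4%. At 50% or more they were 37.6% ± 0.545 in the arms and 83.9% ± 3.35 in the 66 windows of heterochromatin, with medians of 5.81% and 25.2%. Among windows at 10% or more in NRPD1FL, 34.4% of 9215 arm windows retained under 25%, against 6.74% of the windows of heterochromatin, and 42.8% of arm windows retained 75% or more, against 77.9%. The difference between arms and heterochromatin was not tested.

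**Figure D4:**
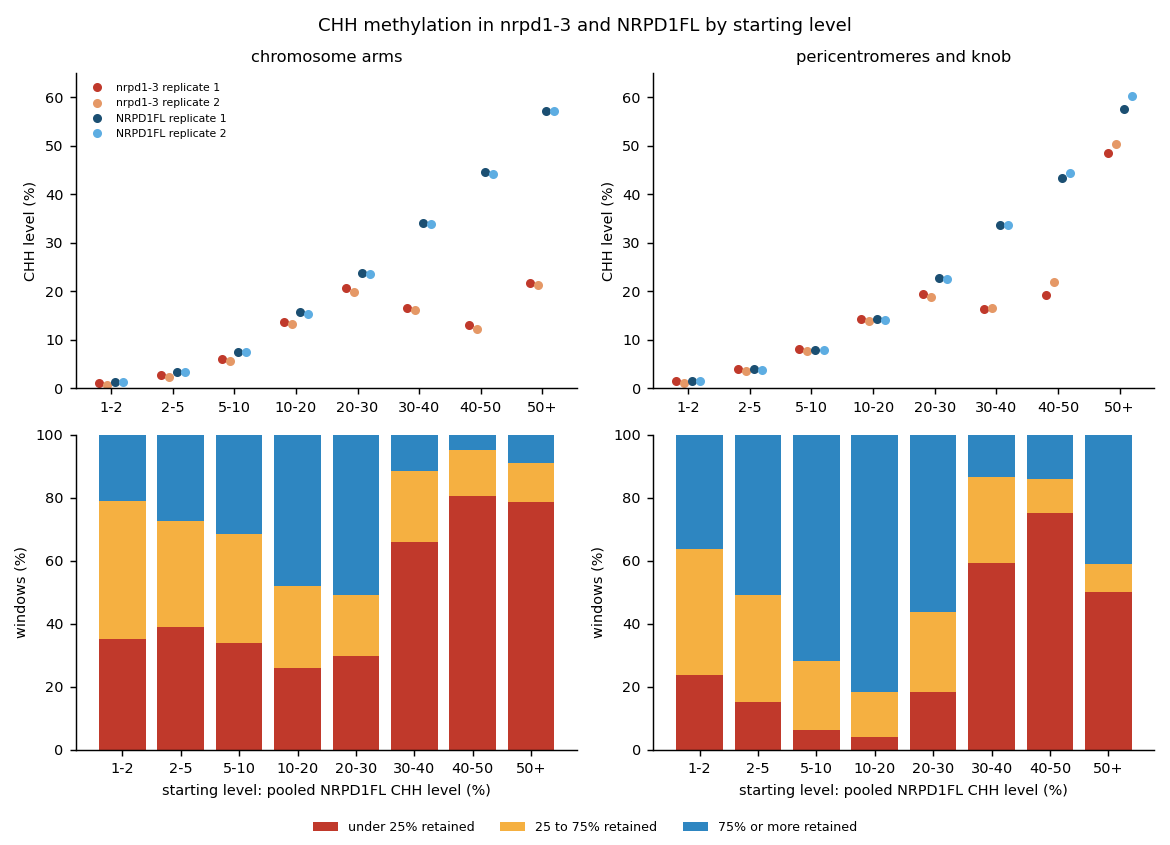
Top, CHH level (percent) of each library by the pooled NRPD1FL level of the windows, in arms (left) and in pericentromeres with the knob (right). Bottom, the percent of windows in each class that retained under 25%, 25 to 75%, or 75% or more. In arm windows at 40 to 50% the nrpd1-3 points lie at 13.1% and 12.3%, below those at 20 to 30%.

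The 268 windows at 50% or more in NRPD1FL were a mixture. Their summed level was 32.6% and 34.1% in nrpd1-3, against 57.3% and 58.2% in NRPD1FL, a retained share of 57.6% ± 1.95, yet the median window retained 6.65%. In 68 of them 90% or more of the methylated NRPD1FL reads lay on 1 strand, and these had 55.2% and 56.4% in nrpd1-3, against 60.3% and 63.1% in NRPD1FL, a retained share of 90.4% ± 3.17, with a median window share of 77.7%, and 35 of them were lower. The other 200 had 17.9% and 17.2% in nrpd1-3, against 56.5% and 56.6% in NRPD1FL, a retained share of 31.1% ± 0.868, and 189 of them were lower. At 40 to 50% the same division, which was made after the values were seen, gave 66.3% ± 4.90 for 85 windows on 1 strand and 26.3% ± 0.838 for 411 on both. Of those 85, however, 65 were lower and the median window retained 16.5%. At 10 to 20% it ran the other way, with 88.4% ± 2.75 on 1 strand and 98.4% ± 3.02 on both.

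Long and short runs of methylated windows differed in their retained share. Adjacent windows at 5% or more in NRPD1FL were joined into runs. A run also ended where the next window was not covered. A window counted as alone or outermost could thus lie beside unmeasured DNA of the same methylated region. The 4014 windows that stood alone had 4.57% and 4.28% in nrpd1-3, against 17.8% and 17.5% in NRPD1FL, a retained share of 25.04% ± 1.19, and 47.9% of them were lower. Runs of 2 to 3 windows retained 39.9% ± 2.36 and runs of 4 to 9 windows 70.7% ± 3.64. The 42943 windows in runs of 10 or more had 14.4% and 13.8% in nrpd1-3, against 14.3% and 14.1% in NRPD1FL, a retained share of 98.98% ± 3.21, and 2.63% of them were lower. The same order was found within the arms, with retained shares of 19.1, 31.2, 63.1 and 94.7%, and within heterochromatin, with 34.2, 50.8, 75.8 and 99.8%. When runs were set on each group, 2285 windows stood alone in nrpd1-3, against 4014 in NRPD1FL, and there were 1363 runs of 10 or more in nrpd1-3, against 1451 in NRPD1FL.

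Within runs of 10 or more windows, the loss was at the ends. The outermost windows had 10.09% and 9.503% in nrpd1-3, against 13.6% and 13.4% in NRPD1FL, a retained share of 72.7% ± 3.18. The next 4 windows inward retained 84.1, 92.9, 96.6 and 97.8%. In the windows farther in, the level was 14.8% and 14.2% in nrpd1-3, against 14.3% and 14.1% in NRPD1FL, a retained share of 102% ± 3.17. In the arms the outermost windows had 12.9% and 12.1% in nrpd1-3, against 19.9% and 19.6% in NRPD1FL, and 32.5% of them were lower, against 1.17% of the windows farthest in. Runs were set on NRPD1FL, so windows at their ends also stood nearest to the limit of 5% or beside a window that was not covered.

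**Figure D5:**
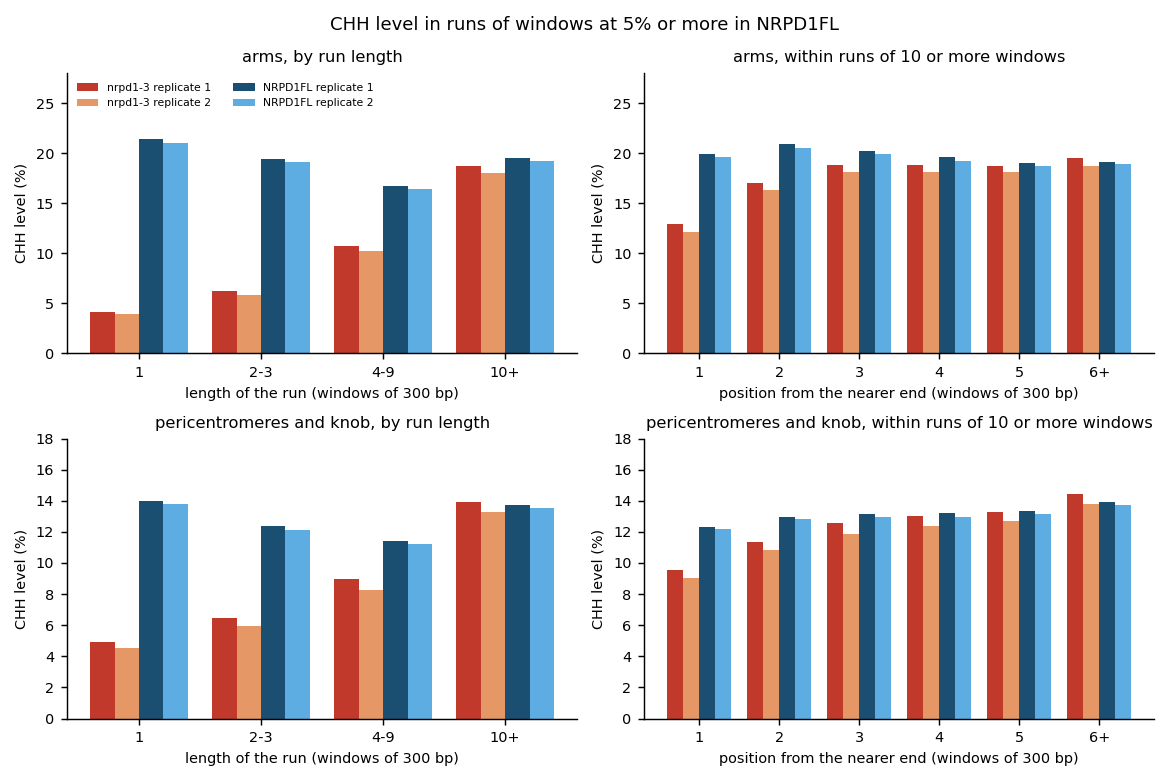
CHH level (percent) of each library in runs of adjacent windows at 5% or more in NRPD1FL, by run length (left) and by position from the nearer end in runs of 10 or more windows (right), in arms (top) and in pericentromeres with the knob (bottom). In arms, windows standing alone have 4.14% and 3.97% in nrpd1-3, against 21.4% and 21.1% in NRPD1FL, whereas inner windows of long runs are level.

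The windows that lost and kept methylation also differed in base composition, position and depth. Of the 45231 windows at 10% or more in NRPD1FL, 5598 retained under 25%, 7625 retained 25 to 75% and 32008 retained 75% or more. Their median GC content was 31, 35.7 and 41%, and they had a median of 30, 50 and 80 listed cytosines, of which at least 10 in each library had been required. Pseudogenes held 3.77, 20.4 and 62.7% of them, and the 1 kb before genes held 25.1, 7.97 and 1.47%. The median number of reads per window in a single library was 264 in nrpd1-3 and 517 in NRPD1FL for the windows that retained under 25%, and 1930 in nrpd1-3 and 1862 in NRPD1FL for those that retained 75% or more. The part of GC content and depth in these classes was not tested.

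The context of the cytosine separated the classes already in NRPD1FL. In windows that retained under 25%, CAA cytosines had 4.75% and 4.48% in nrpd1-3, against 31.6% and 31.3% in NRPD1FL. CCC cytosines of these windows had 1.39% and 1.22% in nrpd1-3, against 20.2% and 20.1% in NRPD1FL. In windows that retained 75% or more, CAA cytosines had 39.5% and 38.5% in nrpd1-3, against 38.3% and 37.8% in NRPD1FL, and CCC cytosines had 1.47% and 1.28% in nrpd1-3, against 1.63% and 1.64% in NRPD1FL. In NRPD1FL, methylation at CCC was thus higher in the windows that lost methylation than in those that kept it, whereas CAA was methylated in both.

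Over all covered windows, CAA cytosines had 16.3% and 15.05% in nrpd1-3, against 16.6% and 15.9% in NRPD1FL, a retained share of 96.5% ± 6.16, and CTA cytosines retained 95.1% ± 6.24. CCC cytosines had 1.16% and 0.772% in nrpd1-3, against 1.58% and 1.53% in NRPD1FL, a retained share of 62.1% ± 17.7, and CCT cytosines retained 70.6% ± 18.6. The CCC levels were not far above the coding-exon levels of 0.338 to 0.463%. With the coding-exon level subtracted the CCC share was 46.4%, and without nrpd1-3 replicate 1 or 2 it was 49.7% or 74.6%. In the windows lower in nrpd1-3 all 9 contexts lay below both NRPD1FL libraries in both nrpd1-3 libraries, with retained shares between 10.2% ± 0.830 at CCT and 33.2% ± 0.905 at CAA. CTA cytosines there had 12.4% and 11.9% in nrpd1-3, against 38.6% and 38.1% in NRPD1FL. These windows were called on the same reads, so the direction at each context is a description.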

How the data were processed

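CHH methylation was measured by whole-genome bisulfite sequencing in 2 nrpd1-3 and 2 NRPD1FL libraries. The titles of the NRPD1FL libraries read NRPE1FL, whereas their other labels give the NRPD1 transgene, which was followed. The submitters' processing notes name bcl2fastq 2.16.0.10, cutadapt 1.9.1, Bismark 0.16.1 and methylKit 0.9.5. The authors deposited, for each cytosine, the coverage as a count of reads and the percent of reads with C, with no cytosine under 5 reads, which sets the depth behind each value. Positions matched TAIR10.1, from whose RefSeq annotation genes were taken, and pericentromere limits followed the study's methods.

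From these, methylated reads were recovered and summed in windows of 300 bp with at least 10 cytosines in each library. Windows were tested by logistic regression (likelihood-ratio test, Benjamini-Hochberg) with Python 3.11.15, NumPy 2.4.6 and SciPy 1.17.1, tested on simulated data, and called at an adjusted p of 0.01 or less and a difference of 10 points. Levels were compared by the two-sided exact permutation test. P-values of the regression treat reads as independent and cover counting error only, as do the limits given for 0 methylated reads (3 reads of the total). PCR copies are not independent molecules. limma 3.58.1 in R 4.3.3 was an alternative.

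Named windows were, on each chromosome, the called window with the largest loss and the highest window that differed by less than 2 points, with 20 cytosines in every library. Named genes were the 15 with a symbol and the largest loss in the 1 kb before the start, the 5 with the highest kept level there, and list members with a called window. Both nrpd1-3 libraries of a named loss lay below both NRPD1FL libraries. The windows, gene lists and rules were chosen with earlier results of these data known, and the division by strand after its values were seen. Same-numbered replicates did not deviate together (correlation -0.0036 over windows), so numbers were not taken as pairs. Transposon annotation was not used here.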

Additional observations from a re-analysis of the deposited data

How the results depend on the processing

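Of 168 alternative values for 14 results, 135 stayed within the limits set for them. Counts had to stay within a set factor of the main value, and retained shares within its SD. Differences in level only had to keep their sign, and with the replicate block they equal the main ones by construction. Limits this wide for differences, and for shares with a large SD, mean that the tally is no measure of stability. Shares just under 100% crossed it without nrpd1-3 replicate 2, to 100.05% at a starting level of 10 to 20%, 101.2% in runs of 10 or more windows and 100.4% at CAA, and to 100.6% in those runs with at least 10 reads per cytosine. The other results kept their direction, apart from the counts of 0 given next. The number of windows lower in nrpd1-3 was 3639 with at least 10 reads per cytosine, 4019 with at least 20 cytosines per window, 2867 with a minimum difference of 20 points and 0 with limma, which called 6873 lower at an unadjusted p under 0.05, and it lay between 6945 and 7222 when 1 library was left out. For windows higher in nrpd1-3 the same settings gave 22, 28, 7 and 0 (17 by limma at an unadjusted p under 0.05). Their number was 27 on cytosines listed in all 4 libraries, 22 without windows methylated on 1 strand, and 57 to 486 when 1 library was left out, the highest without nrpd1-3 replicate 2. The retained share at a starting level of 30 to 40% was 55.5% with at least 10 reads, 53.4% with at least 20 cytosines, 50.1% with windows shifted by 150 bp, 53.9% on common cytosines, 47.8% with the coding-exon level subtracted, 49.2% when set on NRPD1FL replicate 2 and read in replicate 1, 47.5% without windows methylated on 1 strand, and 47.6 to 48.8% when 1 library was left out. At 50% or more it was 64.6% with at least 10 reads, 67.8% with at least 20 cytosines, 63.2% on common cytosines, 55.2% when set on NRPD1FL replicate 1 and read in replicate 2, 31.1% without windows methylated on 1 strand, and 54.6 to 58.9% when 1 library was left out. For windows standing alone it was 35.4% with at least 10 reads, 32.3% with at least 20 cytosines, 31.2% on common cytosines, 23.2% with the coding-exon level subtracted, 26.3% when set on NRPD1FL replicate 2 and read in replicate 1, and 24.2 to 26.2% when 1 library was left out. With each window weighted equally, the retained share was 80.2% in the arms and 86.5% in heterochromatin, closer together than with reads summed. The differences were then -0.276 points in the arms and -1.29 points in heterochromatin, so that their order was reversed. Stricter minima test fewer windows, and the cause of the other differences was not tested. With the replicate number as a block, 7027 windows were lower and 50 higher, all 7027 shared with the fit without it, and the block changed no other call. Lower windows had fewer reads in nrpd1-3, which limits their precision there.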
